A study of Homo sapiens with 6 samples.

Results

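The 48 genes described here build and run the primary cilium or are mutated in ciliopathies: the subunits of intraflagellar transport (IFT) trains, subunits of the dynein-2 motor, the BBSome and its chaperonins, the proteins of the transition zone, one centriolar protein and both polycystins. They were chosen by gene symbol from a list, with earlier results of these data known though by a rule that uses no measured value, and all 48 were found among the 26485 gene names of the count table. RNA-seq of polyadenylated RNA was measured in 6 cultures of HEK293, a human embryonic kidney cell line. In 3 knockdown cultures (numbered 1, 4 and 5 in the labels, replicates 1 to 3 here) the long noncoding RNA *HSALNG0134318* of the 22q11.2 region was targeted by transient transfection of a Smart Silencer, a reagent that combines siRNAs with antisense oligonucleotides. The 3 control cultures (numbered 10, 11 and 1, replicates 1 to 3 here) are labelled NC and wild type, and what they were transfected with is not given in the sources used here. No row for *HSALNG0134318* was analysed here, so the knockdown itself was not checked in these libraries.

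The primary cilium is a microtubule-based antenna that grows from the mother centriole, and most kidney epithelial cells carry one. IFT-B trains driven by kinesin-2 carry cargo to its tip, IFT-A and dynein-2 bring trains back, the BBSome moves membrane proteins out of it, and the transition zone at its base gates what enters. Defects in these genes cause polycystic kidney disease, nephronophthisis, and Bardet-Biedl, Joubert and Meckel syndromes, and Hedgehog signalling in vertebrates runs through the cilium.

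Libraries held 13900965 to 16869948 counts in genes. Values below are counts normalized to the mean effective library size, and fold changes compare knockdown with control on the log2 scale with the standard error of the fit. A gene was called when its Benjamini-Hochberg adjusted p value from the edgeR quasi-likelihood test over 14877 genes was under 0.05, and every adjusted p value given for a gene below comes from that test. With 3 cultures against 3, an exact two-sided permutation test cannot go below p = 0.10, so no such test was used for a gene. Of the HEK293 marker list, 12 of 13 genes passed the filter on low counts and the summed level of the list was 26847 to 33777 in control and 29022 to 34391 in knockdown libraries, while *PAX8* was near 0 (2.04, 5.36 and 3.09 normalized counts in controls and 1.93, 5.22 and 4.29 in knockdowns) and the tested markers had a median log2 fold change of 0.20 with 10 of 12 positive. Of these *LIN28B* alone was called (-0.47 ± 0.12, adjusted p = 0.0301, up to 0.132 without one library). In the list for blood and endothelial cells 6 of 7 genes had a mean under 10, and the 1 gene tested had a mean of 86.7. The summed level of that list was 78.6 to 104 in control and 90.8 to 120 in knockdown libraries. In bulk RNA, fewer cells of a kind and less RNA per cell cannot be told apart.

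More of the ciliary genes had positive than negative fold changes in knockdown cultures. All 48 passed the filter on low counts, 7 were called higher and none was called lower. The 7 genes were the IFT-B subunits *IFT27*, *IFT52* and *TRAF3IP1*, the IFT-A subunit *IFT140*, the BBSome subunit *BBS1*, and the transition zone proteins *TCTN1* and *TMEM216*. That is 14.6% of the 48 genes, where 5.40% of all genes tested were called higher and 4.64% were called lower. An unadjusted p under 0.05 was found for 13 of the 48 genes (27.1%) and for 26.9% of all genes tested, nearly the same share. DESeq2 and limma-voom likewise called 7 higher and 0 lower.

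The log2 fold changes of the 48 genes ranged from -0.25 for *BBS12* to 0.83 for *IFT27*, with a median of 0.15 against -0.019 over all genes tested. Positive values were found for 37 of the 48 genes and negative values for 11, while 47.3% of all genes tested were positive. In 16 of the 48 genes (33.3%) each knockdown library lay above each control library, which held for 16.4% of all genes tested. In 0 of the 48 did each knockdown library lie below each control library, against 15.8% of all genes tested. Standard errors of the 48 genes ran from 0.094 to 0.30.

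**Figure D1:**
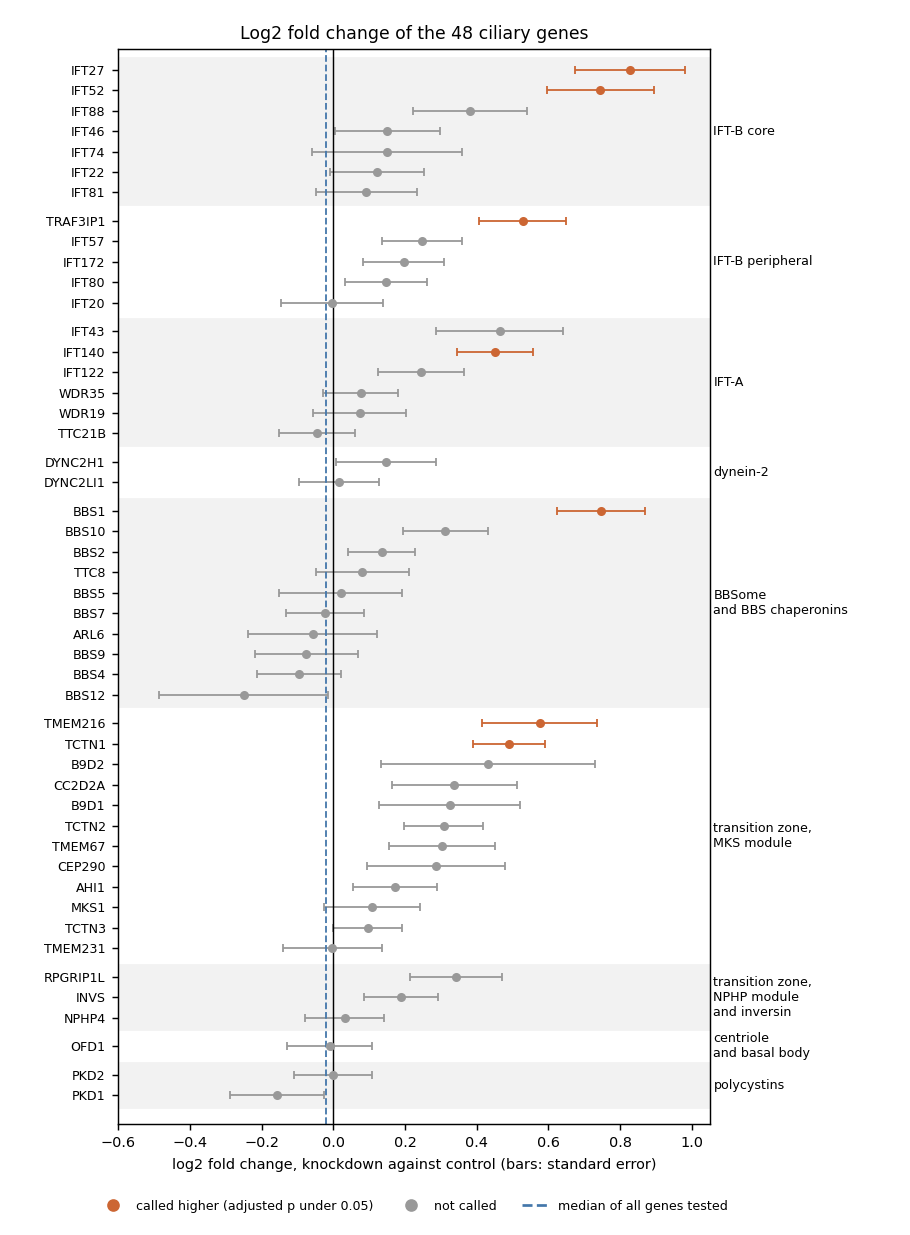
Log2 fold change of knockdown against control (x axis) for each of the 48 ciliary genes, grouped by role; points are the fitted values, bars their standard errors, orange points the called genes, and the dashed line the median of all genes tested. The 7 called genes lie between 0.45 and 0.83, and the largest negative value is -0.25 for *BBS12*.

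**Figure D2:**
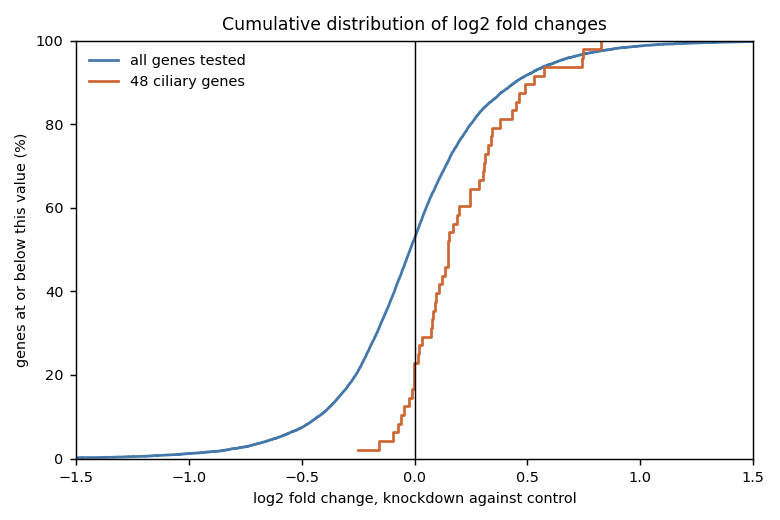
Cumulative share (y axis, percent) of genes at or below each log2 fold change (x axis), for the 48 ciliary genes (orange) and all 14877 genes tested (blue). The curve of the ciliary genes runs to the right of that of all genes through most of the range, with medians of 0.15 and -0.019, and lacks the tails beyond -0.25 and 0.83.

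The promoters of these genes were searched for the X-box, the sequence that RFX transcription factors bind and a known feature of many ciliary genes. The windows hold 250 bases before and 50 bases from the start of each gene on, from RefSeq on GRCh38.p14, and matched 43 of the 48 genes, all but *BBS9*, *IFT22*, *TCTN2*, *TMEM67* and *WDR35*. The search was for a 6-base X-box arm, GTTGCC on either strand, and for a paired site, GTTNCC and GGNAAC separated by 1 to 3 bases, which can overlap the arm. The arm was present in 19 of the 43 promoters (44.2%) and in 12.2% of all 27305 promoters of this length. The paired site was present in 4 of the 43 (9.30%) and in 0.696% of all promoters. The 4 paired sites are shown because they carry the whole motif, with the site in capitals and each line read 5′ to 3′ on the strand of the gene. They lie in *ARL6* (chr3:97764714-97764767, plus strand), *IFT122* (chr3:129440192-129440246, plus strand), *TCTN1* (chr12:110614109-110614158, plus strand) and *TCTN3* (chr10:95694110-95694162, minus strand).
ARL6: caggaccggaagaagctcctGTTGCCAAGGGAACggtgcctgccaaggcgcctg
IFT122: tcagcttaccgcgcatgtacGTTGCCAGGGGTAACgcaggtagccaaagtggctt
TCTN1: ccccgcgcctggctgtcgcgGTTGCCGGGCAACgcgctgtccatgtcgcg
TCTN3: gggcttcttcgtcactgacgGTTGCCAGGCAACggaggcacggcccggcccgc
Counted with 0 at the RefSeq start, the site began at -24 in *ARL6*, -12 in *IFT122*, 0 in *TCTN1* and -215 in *TCTN3*. The gene bounds given for single genes come from GENCODE 44 and differ from these starts. By those bounds *TCTN1* starts at 110614027, so its site at 110614129 lies inside the gene. *TCTN3* starts there at 95694143 on the minus strand, beside its site at 95694130 to 95694142. Of these 4 genes *TCTN1* was called higher, and the others had log2 fold changes of -0.058 (*ARL6*), 0.24 (*IFT122*) and 0.095 (*TCTN3*).

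The arms of *BBS1* and *IFT27* are shown because both genes were called higher under every alternative fit. The windows hold 120 bases before and 30 bases from the start on, and capitals mark the arm, which in *IFT27* lies on the opposite strand. They are chr11:66510515-66510664 (plus strand) for *BBS1* and chr22:36776090-36776239 (minus strand) for *IFT27*.
BBS1: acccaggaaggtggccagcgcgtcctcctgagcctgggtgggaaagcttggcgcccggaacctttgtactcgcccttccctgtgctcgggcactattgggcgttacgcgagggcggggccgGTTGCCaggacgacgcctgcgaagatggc
IFT27: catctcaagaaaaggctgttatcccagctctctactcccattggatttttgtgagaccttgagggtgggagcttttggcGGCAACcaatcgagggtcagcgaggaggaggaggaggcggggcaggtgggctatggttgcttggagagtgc
The arm began at 1 in *BBS1* and at -41 in *IFT27*. In the 43 promoters 24 arms were found, 13 of them beginning within the 100 bases before the start. The 19 genes with an arm held 3 called genes (*BBS1*, *IFT27* and *TCTN1*) and a median log2 fold change of 0.15. The 24 genes without one held the other 4 and a median of 0.18.

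Among the IFT-B core, the part of the anterograde train that binds tubulin and holds the complex together, 2 of 7 subunits were called higher, and all 7 fold changes were positive. *IFT27*, a small Rab-like GTPase (chromosome 22, 36758202 to 36776256, hg38, minus strand), had normalized counts of 166, 241 and 184 in control replicates 1 to 3. In knockdown replicates 1 to 3 it had 354, 332 and 366, so the lowest knockdown library exceeded the highest control library. The means were 197 ± 39.0 and 351 ± 17.4 (SD, n = 3), which gave 0.83 ± 0.15 (standard error) as the log2 fold change (adjusted p = 0.00737). A long noncoding RNA that was not analysed here shares 955 exon bases with *IFT27* on the opposite strand, and the strand setting of the counting is not given in the sources used here.

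*IFT52* (chromosome 20, 43590937 to 43647299, plus strand), which joins the core subunits, had 222, 278 and 336 normalized counts in controls and 451, 481 and 469 in knockdowns. The groups did not overlap, and control replicate 1 was the lowest library. The log2 fold change was 0.74 ± 0.15 (adjusted p = 0.0104). Its exons overlap no other annotated gene.

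The other 5 core subunits were not called. *IFT88*, whose loss gives polycystic kidneys in the mouse, had 291, 232 and 356 normalized counts in controls and 343, 394 and 406 in knockdowns. Control replicate 2 was its lowest library and the groups overlapped (0.38 ± 0.16 on the log2 scale, adjusted p = 0.152). *IFT81* and *IFT74*, the pair that binds tubulin, had log2 fold changes of 0.092 ± 0.14 and 0.15 ± 0.21. *IFT81* was the lowest of the group, and *IFT46* (0.15) and the Rab-like *IFT22* (0.12) lay between, each with overlapping groups.

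In peripheral IFT-B, which faces the motor and cargo adaptors, 1 of 5 subunits was called. *TRAF3IP1*, the microtubule-binding subunit also named IFT54 (chromosome 2, 238320441 to 238400897, plus strand), had 574, 477 and 641 normalized counts in controls. In knockdowns it had 783, 855 and 801, all above the controls. The log2 fold change was 0.53 ± 0.12 (adjusted p = 0.0203).

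*IFT57* was also higher in each knockdown library (692, 744 and 748) than in each control library (566, 584 and 689), and its log2 fold change of 0.25 ± 0.11 was not called (adjusted p = 0.179). *IFT172*, the largest IFT-B subunit, had 620.4, 524 and 574 normalized counts in controls and 699, 606 and 662 in knockdowns, with overlap and a log2 fold change of 0.20 ± 0.11. *IFT80* had a log2 fold change of 0.15 ± 0.11. *IFT20*, which also works at the Golgi, was at the bottom of the group with -0.0043 ± 0.14, and its control counts of 234, 288 and 264 and knockdown counts of 257, 293 and 234 interleaved.

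Of the 6 IFT-A subunits, which return trains and admit membrane receptors, 1 was called. *IFT140* (chromosome 16, 1510427 to 1612072, minus strand), a core subunit mutated in skeletal and renal ciliopathies, had 587, 613 and 707 normalized counts in controls and 897, 848 and 861 in knockdowns. The lowest knockdown library stood above the highest control library. The log2 fold change was 0.45 ± 0.11 (adjusted p = 0.0216). *TELO2*, which shares 31 exon bases with *IFT140* on the opposite strand, had 0.29 ± 0.11 (adjusted p = 0.109). Genes that were not analysed here share 287 and 74 of its exon bases on the opposite strand and 120 on the same strand.

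*IFT43*, the smallest IFT-A subunit, had a larger log2 fold change than *IFT140*, 0.46 ± 0.18, but a wider error, and was not called (adjusted p = 0.118). Its normalized counts were 120.4, 112 and 164 in controls and 197, 171 and 178 in knockdowns, without overlap. It shares 85 exon bases with *TTLL5* on the same strand. *IFT122* also showed no overlap, with 367, 309.7 and 358 in controls and 429, 392 and 404 in knockdowns, and its log2 fold change of 0.24 ± 0.12 was not called. The remaining subunits lay near 0: *WDR35* at 0.077, *WDR19* at 0.074 and *TTC21B*, mutated in nephronophthisis, at -0.046.

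Neither of the 2 dynein-2 subunits was called. *DYNC2H1*, the heavy chain of the retrograde motor, had 1423, 1001 and 1541 normalized counts in controls and 1453, 1532 and 1402 in knockdowns, with control replicate 2 well below the other 5 libraries. Its log2 fold change was 0.15 ± 0.14. *DYNC2LI1*, the light intermediate chain, had 0.015 ± 0.11.

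The BBSome and its chaperonins divided evenly by sign, with 5 positive and 5 negative fold changes, and 1 of 10 was called. *BBS1* (chromosome 11, 66510606 to 66533613, plus strand), the subunit that binds the GTPase *ARL6* and the gene mutated most often in Bardet-Biedl syndrome, had 343, 366 and 399 normalized counts in controls. In knockdowns it had 690.2, 560.2 and 608, and the groups were well apart. The means were 369 ± 28.3 and 619 ± 65.8 (SD, n = 3). The log2 fold change was 0.75 ± 0.12, and the adjusted p of 0.00346 was the smallest of the 48 genes. *ZDHHC24*, which shares 759 exon bases with *BBS1* on the opposite strand, had 0.11 ± 0.19 (adjusted p = 0.752). A readthrough gene that was not analysed here shares 3311 exon bases with *BBS1* on the same strand. A long noncoding RNA, also not analysed, shares 771 on the opposite strand.

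No other BBSome subunit was called. *BBS2* had 805, 785 and 855 normalized counts in controls and 921, 873 and 889.9 in knockdowns, no overlap, but a log2 fold change of only 0.13 ± 0.094 (adjusted p = 0.393). *TTC8* (BBS8), *BBS5*, *BBS7*, *BBS9* and *BBS4* had log2 fold changes of 0.080, 0.020, -0.024, -0.075 and -0.097, each with overlapping groups. *ARL6*, which recruits the complex to membranes, had -0.058 ± 0.18.

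Neither of the chaperonin-like proteins, which help the BBSome to assemble, was called. *BBS10* had 735, 567 and 732 normalized counts in controls and 856, 830.4 and 835 in knockdowns, above all controls, with a log2 fold change of 0.31 ± 0.12 (adjusted p = 0.117). *BBS12* was the lowest of all 48 genes with -0.25 ± 0.24, and its groups overlapped at low counts of 112, 85.7 and 72.0 in controls and 58.8, 75.1 and 93.4 in knockdowns.

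The MKS module of the transition zone had the highest median of the groups with 3 or more genes, 0.31, and 11 of its 12 fold changes were positive, 2 of them called. *TCTN1*, a tectonic (chromosome 12, 110614027 to 110663431, plus strand), had 595, 571 and 559.7 normalized counts in controls, which lay close together, and 767, 850.2 and 807 in knockdowns. The groups were separate by more than the range of either one. The log2 fold change was 0.49 ± 0.10 (adjusted p = 0.0112). *HVCN1*, which shares 724 exon bases with *TCTN1* on the opposite strand, had a mean of only 27.0 normalized counts in controls.

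*TMEM216*, a membrane protein of the same module mutated in Joubert and Meckel syndromes (chromosome 11, 61392393 to 61398866, plus strand), had 112, 111 and 102 normalized counts in controls and 178, 158 and 148 in knockdowns. All knockdown libraries were above all controls, and knockdown replicate 1 was the highest. The log2 fold change was 0.58 ± 0.16, with an adjusted p of 0.0427, the nearest to the threshold among the called genes.

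The other tectonics were not called. *TCTN2* had 470.4, 454 and 451 normalized counts in controls and 611, 569.6 and 522 in knockdowns, without overlap, and a log2 fold change of 0.31 ± 0.11 that missed the threshold (adjusted p = 0.0993). *TCTN3* had 0.095 ± 0.095.

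Of the other membrane and C2-domain proteins, *TMEM67* (meckelin) had 169, 169.6 and 211 normalized counts in controls and 216, 243 and 219 in knockdowns, just apart, with 0.30 ± 0.15 and an adjusted p of 0.215. *CC2D2A* had 163, 140.1 and 217 in controls and 209, 235 and 213 in knockdowns, where control replicate 3 overlapped the knockdowns, and a log2 fold change of 0.34 ± 0.17. *TMEM231* was the lowest of the module at -0.0031 ± 0.14. Its control counts of 192, 193 and 185 and knockdown counts of 201, 192 and 175 covered the same range.

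The B9-domain proteins *B9D1* and *B9D2* had log2 fold changes of 0.32 ± 0.20 and 0.43 ± 0.30, neither called. *B9D1* had 108, 147 and 169 normalized counts in controls and 212, 158 and 161 in knockdowns, and shares 2248 exon bases with the opposite-strand gene EPN2. *B9D2* had the fewest counts and the widest standard error of the 48 genes. *CEP290*, *AHI1* and *MKS1* had 0.29, 0.17 and 0.11, and in *CEP290* control replicate 2 stood apart at 1003 normalized counts where the other libraries had 1619 to 1942.

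In the nephronophthisis module none of 3 genes was called. *RPGRIP1L*, a scaffold of the transition zone, had 548, 427 and 581 normalized counts in controls and 649.7, 638 and 683 in knockdowns, without overlap, and a log2 fold change of 0.34 ± 0.13 (adjusted p = 0.114). *INVS* (inversin) likewise had higher counts in each knockdown library (622, 627 and 576) than in each control library (554, 508 and 540.1), with 0.19 ± 0.10 (adjusted p = 0.276). *NPHP4* was at the bottom of the group with 0.031 ± 0.11.

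*OFD1*, the centriolar protein, had the highest level per kilobase of the 48 genes and a log2 fold change of -0.0097 ± 0.12. Both polycystins had values at or below 0 and neither was called. *PKD2*, the cation channel polycystin-2, had 879.6, 811 and 846 normalized counts in controls and 749.9, 839 and 947 in knockdowns, with interleaved libraries and -0.00094 ± 0.11 (adjusted p = 0.997). *PKD1*, the large receptor-like polycystin-1, had 2302, 2544 and 1712 in controls and 2046, 1819 and 2018 in knockdowns, -0.16 ± 0.13 (adjusted p = 0.482).

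The *PKD1* value is uncertain because the gene has near-identical pseudogene copies, and how reads that map to several places were counted is not given in the sources used here. The copies *PKD1P6* and *PKD1P1* had log2 fold changes of -0.17 ± 0.17 and -0.034 ± 0.13. In all, 27 of the 48 genes share exon bases with another annotated gene, and 21 with a gene of the table, 2 of those on the same strand.

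**Figure D3:**
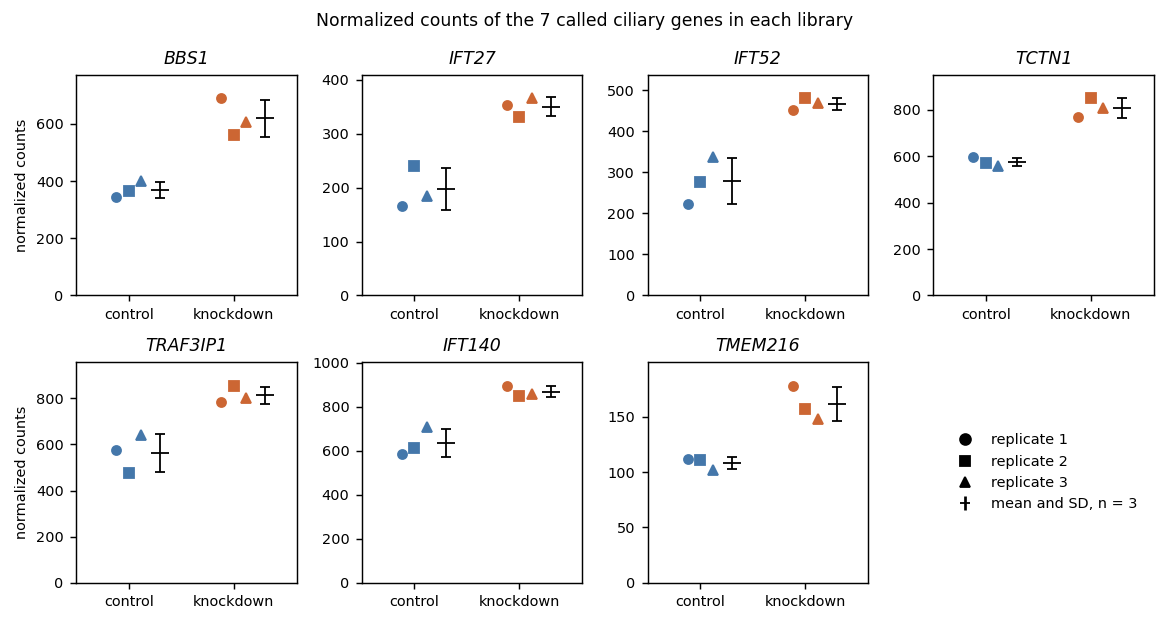
Normalized counts (y axis, from 0) of the 7 called genes in each control (blue) and knockdown (orange) library, with marker shape giving the replicate number and black bars the mean and SD of 3 cultures. In all 7 genes the lowest knockdown library lies above the highest control library.

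Levels were compared between genes as normalized counts per kilobase of transcript in controls. The length used was that of the Ensembl canonical transcript of each gene. Which transcripts these cells express was not tested, so a level also depends on the length chosen. They ran from 27.8 for *BBS12* to 512 for *OFD1*. Behind *OFD1* came *TCTN3* with 369.5, *IFT20* with 305 and *BBS2* with 301, and at the low end *ARL6* had 28.9, *B9D2* 32.6 and *CC2D2A* 33.5. By this measure subunits of a complex were far from equal. Within the IFT-B core the control level went from 78.1 for *IFT22* to 264 for *IFT46*. The mean normalized counts of these 2 genes in controls were 381 and 412, over lengths of 4881 and 1562 bases. Within the BBSome and its partners the level went from *BBS12* to *BBS2*. With knockdown, *IFT27* went from 184 to 327, which set it above *IFT46* (293) at the top of the core, though the range of *IFT46* in knockdown libraries takes in that of *IFT27*.

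**Figure D4:**
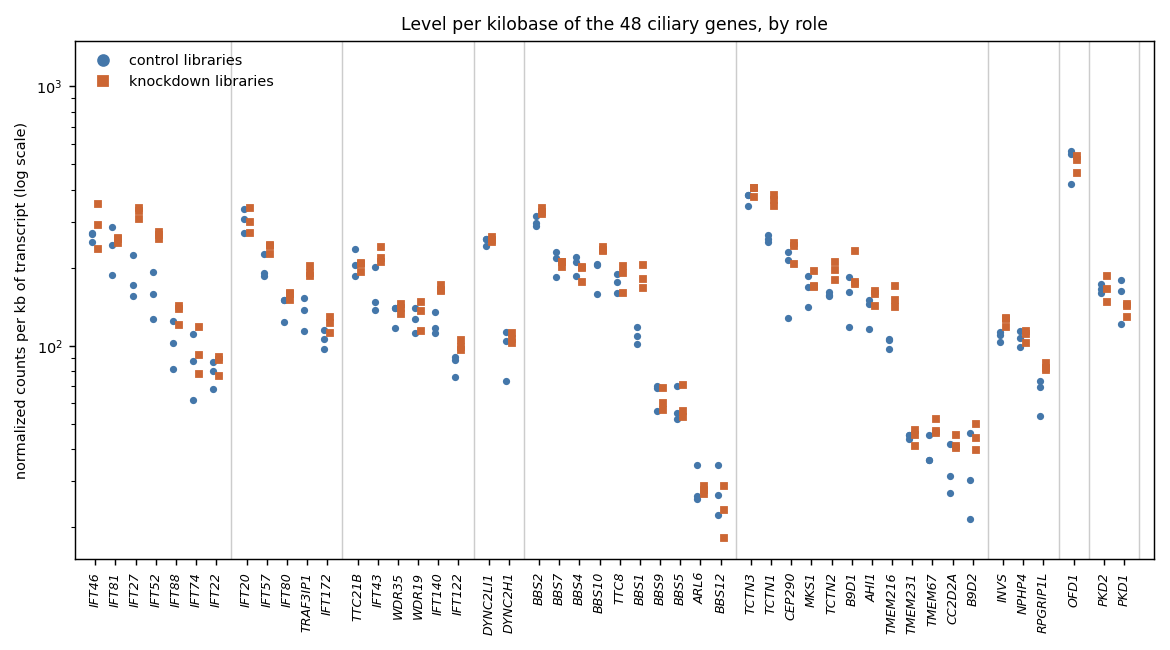
Normalized counts per kilobase of transcript (y axis, log scale) of the 48 genes in each control (blue circles) and knockdown (orange squares) library, with vertical lines between role groups and genes sorted by control level within a group. Levels differ more between genes (27.8 to 512 in controls) than between the 2 groups of libraries for any of the 48.

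Control replicate 2 was the lowest of the 6 libraries in 22 of the 48 genes (45.8%), and in 24.4% of all genes tested. It was lowest more often at low GC content, among the 48 genes and among all genes tested. In the 14 ciliary genes with a transcript GC content under 40%, a limit set after the values were seen, control replicate 2 was lowest in 11. It was lowest in 909 of all 2346 tested genes under 40%. Its median log2 ratio to the mean of the other controls was -0.31 in the 14 and -0.26 in the 2346. In the 34 ciliary genes with 40% or more it was lowest in 11, against 2594 of all 12130 such genes. The median ratios there were -0.048 and 0.053. In both GC ranges the share was larger among the ciliary genes than among all tested genes, and the reason was not tested. The 7 called genes have a GC content of 44.2% to 59.7%, and 0 of the 14 low-GC genes was called, where 2.73% of all tested genes under 40% and 5.98% of those from 40% on were called higher.

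Without control replicate 2 the median log2 fold change of the 48 genes was 0.11 and the same 7 genes were called, while the share of all genes called higher was 8.45%. With offsets for GC content and length fitted per library, 14 of the 48 genes were called higher and 0 lower, where 9.89% of 14476 genes were called higher. The 7 genes called besides those above were *IFT57*, *IFT80*, *IFT88*, *BBS10*, *CEP290*, *AHI1* and *RPGRIP1L*. Of the low-GC genes 6 were called after this correction, and the median log2 fold change of the 14 went from 0.15 to 0.25. *CEP290* went from 0.29 to 0.41 (adjusted p = 0.0158) and *BBS10* from 0.31 to 0.43 (adjusted p = 0.00469). No polycystin was called in this fit, with -0.20 for *PKD1* (adjusted p = 0.0900) and -0.018 for *PKD2*. The part of library composition in the fold changes of the low-GC genes was not tested further.

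**Figure D5:**
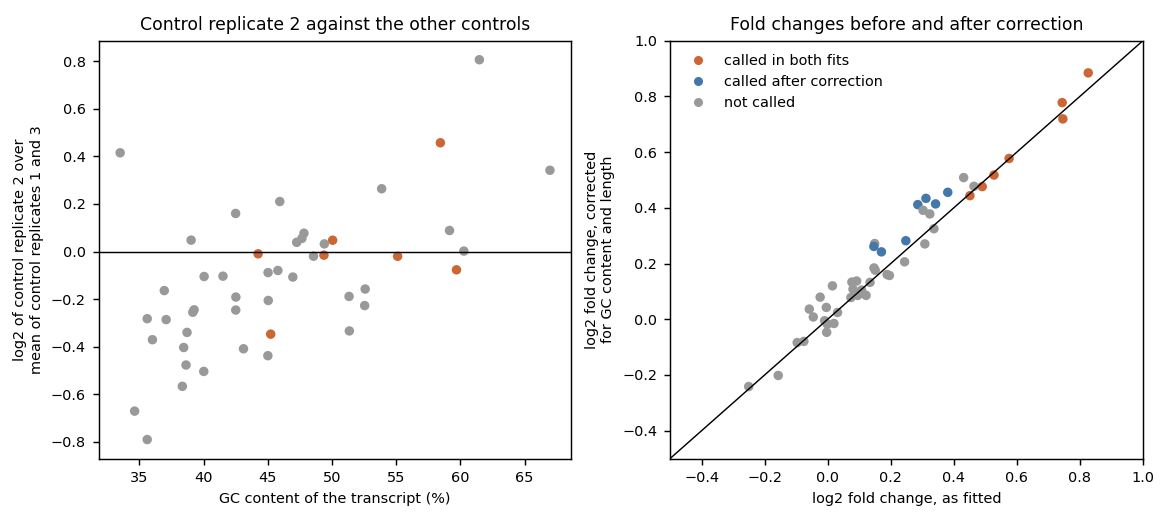
Left: log2 ratio of control replicate 2 to the mean of control replicates 1 and 3 (y axis) against transcript GC content (x axis, percent) for the 48 genes. Right: log2 fold change after correction for GC content and length (y axis) against that without (x axis); orange marks the 7 genes called in both fits, blue the 7 called after correction alone, grey those not called, and the line equality. Ratios on the left have a median of -0.31 under 40% GC and of -0.048 from 40% on.

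The calls differed in how far they rested on single libraries. *BBS1* and *IFT27* were called in all 15 alternative fits, with log2 fold changes of 0.66 to 0.81 and 0.72 to 0.999. Without knockdown replicate 2, and likewise without knockdown replicate 3, these were the only 2 of the 48 genes called, where 1.91% and 1.97% of all genes tested were called higher. *IFT52* and *TCTN1* lost their calls in these 2 fits alone, with adjusted p values up to 0.0536 and 0.0815. *TRAF3IP1* and *IFT140* also lost theirs without control replicate 1 and without knockdown replicate 1, with adjusted p values up to 0.103 and 0.0962. *TMEM216* was called in 9 of the 15 fits and reached 0.164, losing its call with the replicate block and without any one library but control replicate 2. None of the 48 genes was called lower in any of the 15.

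Among ciliary genes outside the 48, calls went both ways. In 6 lists with 90 other ciliary genes, 88 were tested, and the median log2 fold change was 0.064. Of the 88, 5 were called higher (5.68%) and 5 lower (5.68%), near the 5.40% and 4.64% of all genes tested. Among other IFT subunits and kinesin-2, 1 of 11 was called: *KIF3C*, an accessory kinesin-2 motor subunit, rose by 0.62 ± 0.12 on the log2 scale (adjusted p = 0.00856). None of 8 tested dynein-2 subunits and none of 9 other Bardet-Biedl genes and regulators was called. At the transition zone and distal appendages 2 of 28 were called higher, *CEP164* with 0.43 ± 0.12 (adjusted p = 0.0407) and *RPGR* with 0.69 ± 0.20 (adjusted p = 0.0493).

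The 5 genes called lower belonged to membrane traffic and to the start of ciliogenesis. Of 13 genes for ciliary membrane traffic, 3 fell, among them *RAB3IP* (Rabin8), which activates RAB8 (-0.68 ± 0.12), and *RAB23*, a negative regulator of Hedgehog signalling (-0.54 ± 0.11). Their adjusted p values were 0.00598 and 0.0118. *CFAP36*, which binds the ciliary GTPase *ARL3*, rose by 0.84 ± 0.12 (adjusted p = 0.00177). Of 19 genes for the start of ciliogenesis, *CEP97*, which caps the mother centriole and holds back cilia, had -0.70 ± 0.14, the kinase *DYRK2* had -0.63 ± 0.096 and the distal appendage protein *FBF1* had 0.61 ± 0.12, with adjusted p values of 0.00910, 0.00231 and 0.0106. *CFAP36*, *RAB3IP* and *DYRK2* were called in all 15 alternatives. The others named here lost their calls without knockdown replicate 1. *CEP164*, *RPGR*, *RAB23* and *FBF1* also lost theirs without control replicate 1, all but *FBF1* without knockdown replicate 3, and *CEP164* and *RPGR* without knockdown replicate 2. *CEP164* was also lost with the replicate block (adjusted p = 0.0524). The highest adjusted p with one library left out was 0.0531 for *KIF3C*, 0.0568 for *FBF1*, 0.0582 for *CEP97*, 0.0615 for *RAB23*, 0.159 for *CEP164* and 0.176 for *RPGR*.

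Of 8 tested RFX factors, which bind the X-box, and multiciliation factors 1 was called. *RFX7* was lower (-0.50 ± 0.12, adjusted p = 0.0222, up to 0.103 without one library), with 1219, 919 and 1032 normalized counts in controls and 694, 783 and 762 in knockdowns. *RFX3*, a regulator of ciliary genes, had 153, 131 and 147 in controls and 174, 171 and 173 in knockdowns, higher in each knockdown library but not called (0.27 ± 0.15, adjusted p = 0.274). *RFX1*, *RFX2*, *RFX5* and *RFX6* had -0.18, 0.18, -0.19 and -0.36, *MCIDAS* -0.078 and *FOXN4* -0.55, none called. Without control replicate 3 *FOXN4* was called lower (adjusted p = 0.0177). *FOXJ1*, the master factor of motile cilia, was near 0, with 8.16, 5.36 and 4.12 normalized counts in controls and 2.89, 6.26 and 5.37 in knockdowns.

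Of 18 tested Hedgehog genes 1 was called, *SPOP*, a ubiquitin ligase adaptor for GLI proteins, higher by 0.41 ± 0.097 (adjusted p = 0.0215, up to 0.123 without one library and 0.0602 with the replicate block). Fold changes were positive in 5 of the 18 and negative in 13, while 47.3% of all genes tested were positive. The pathway's target genes *GLI1*, *PTCH1* and *HHIP* were not called in the main fit. With GC and length correction *PTCH1* and *SMO* were called lower (adjusted p = 0.0356 and 0.0348). Without control replicate 2 *GAS1* was called higher (adjusted p = 0.00250). *GLI1* had 53.1, 35.7 and 22.6 normalized counts in controls and 17.4, 17.7 and 26.8 in knockdowns (-0.85 ± 0.36, adjusted p = 0.155). The receptor gene *PTCH1* had -0.26 ± 0.11, and *HHIP* had -0.54 ± 0.28. The other receptors and co-receptors *SMO*, *GPR161*, *BOC*, *CDON* and *GAS1* had -0.24, -0.064, 0.22, -0.086 and 0.36. Of the remaining genes of the list, *SUFU*, *KIF7*, *GLI2*, *GLI3*, *DISP1*, *PRKACA*, *PRKAR1A* and *CSNK1A1* had 0.13, 0.14, -0.12, -0.12, -0.27, -0.045, -0.027 and -0.052.

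Of 20 markers of motile cilia 14 were tested and 1 was called, *SPAG6* (0.46 ± 0.13, adjusted p = 0.0392, up to 0.147 without one library and 0.100 with the replicate block). *SPAG6* was called in 8 of the 15 alternatives. Its call was also lost with no filter on low counts and without any one library but control replicate 2. The summed level of the list was 11335 to 14133 in controls and 11484 to 12970 in knockdowns. Most of this sum came from 1 gene with a mean of 11123 normalized counts, and 6 of the 20 markers had a mean under 10. Of 16 proliferation genes 4 were called lower and 0 higher: *CDKN1A*, a p53-induced inhibitor of cyclin-dependent kinases (-1.04), *CCNE2* (-0.68), *CDK1* (-0.47) and *PCNA* (-0.35). *CDK1* lost its call without knockdown replicate 3 (adjusted p = 0.0565), and *PCNA* without control replicate 1, without any knockdown replicate and with the replicate block (up to 0.165). The summed level of the 16 genes, inhibitors included, was 72434 to 80569 in controls and 69678 to 71809 in knockdowns, without overlap. Cilia are resorbed before mitosis, and the part of these genes in the 7 calls among the 48 was not tested.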

How the data were processed

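Per the labels and the methods of the study, the authors prepared stranded polyadenylated RNA libraries from HEK293 cultures (n = 3 per group), checked reads with FastQC (0.11.9), trimmed them with Trim Galore (0.6.6), removed ribosomal RNA, aligned to hg38 with STAR (2.7.9a) and counted with featureCounts (2.0.1). The submitters' processing notes gave these versions, and the methods give later ones for STAR and the counting package. The deposited values are raw counts per gene, without normalization. Annotation, strand setting and treatment of multi-mapping reads are not given in the sources used here.

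Genes were filtered with filterByExpr, which kept 14877 of the 21131 with at least 1 count, given TMM factors, and fitted in edgeR 4.0.16 under R 4.3.3 with the quasi-likelihood test (robust), knockdown against control. Benjamini-Hochberg adjustment ran over all 14877. Normalized counts rescale each library to the mean effective size. On simulated data edgeR recovered 188 of 200 genes changed by 1 on the log2 scale, with 15 false calls among 14727 genes. The changed genes were drawn only from those above a minimum mean count, and smaller changes were not simulated. DESeq2 1.42.0, limma-voom (limma 3.58.1), other normalizations and filters, a replicate block, offsets for GC content and length, and leaving out each library were alternatives. Gene bounds, transcript length and GC content come from GENCODE 44, matched to 23161 names by symbol and 1357 by RefSeq synonym. The starts of the promoter windows come from RefSeq.

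The 48 genes and the comparison lists were chosen with earlier results of these data known. Named in the text were the called genes of the 48, the 12 uncalled ones with the smallest p, the highest and lowest of each role group, at most 5 called genes of every other list, and the tested RFX and Hedgehog genes, apart from a few that are not reported here. Others of the 48 are given by value within their group. Same-numbered replicates did not deviate together (correlations -0.20, -0.11 and -0.044), so the numbers were not treated as pairs. Cultures are described as independent experiments, and p values set the difference between groups against the spread between cultures.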

Additional observations from a re-analysis of the deposited data

How the results depend on the processing

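Of 1380 values of 92 genes under 15 alternatives, 1287 stayed on their side of the threshold. For the 48 ciliary genes, 18 calls were lost and 14 gained. GC and length correction gave 14 genes called higher among the 48 and 1432 higher and 1431 lower among all genes, and with the replicate block added 11, 1274 and 1203. Leaving out one library gave 2 to 9 of the 48 called higher, 289 to 1274 of all genes higher and 233 to 1238 lower. With the replicate block alone 6 of the 48 were called (*TMEM216* lost), 714 genes higher and 619 lower. The cause was not tested. The normalizations, filters, DESeq2 and limma-voom each called 7 of the 48.

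In 61 values of 21 genes the sign changed, 0 of them called. With library totals alone these were *IFT20* (0.0057), *TMEM231* (0.0068), *OFD1* (0.0012) and *PKD2* (0.0097). With a minimum of 10 counts they were *IFT20* (0.0019), *TMEM231* (0.0030) and *PKD2* (0.0052). With DESeq2 size factors they were *TMEM231* (0.0011) and *PKD2* (0.0026), with the DESeq2 test *TMEM231* (0.00010) and *PKD2* (0.0014), and with limma-voom *OFD1* (0.0014). With GC correction, without and with the block, they were *IFT20* (0.043 and 0.040), *TTC21B* (0.0083 and 0.0092), *ARL6* (0.037 and 0.066), *BBS5* (-0.015 and -0.013), *BBS7* (0.079 and 0.077) and *PRKAR1A* (0.036 and 0.038). Without one library, log2 fold changes spanned 0 in *DYNC2H1* (-0.020 to 0.28), *DYNC2LI1* (-0.016 to 0.037), *IFT20* (-0.093 to 0.071), *IFT81* (-0.059 to 0.25), *NPHP4* (-0.013 to 0.083), *OFD1* (-0.13 to 0.073), *PKD2* (-0.089 to 0.078), *TMEM231* (-0.051 to 0.052), *TTC21B* (-0.12 to 0.049), *ARL6* (-0.14 to 0.098), *BBS5* (-0.12 to 0.16), *BBS7* (-0.11 to 0.046), *IFT46* (-0.0028 to 0.29), *IFT74* (-0.045 to 0.37), *WDR19* (-0.013 to 0.17), *WDR35* (-0.0041 to 0.13), *GLI2* (-0.32 to 0.0042), *GPR161* (-0.21 to 0.077), *PRKACA* (-0.13 to 0.026), *PRKAR1A* (-0.061 to 0.0087) and *RFX1* (-0.36 to 0.019).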

Other observations

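Among polycystic kidney and nephronophthisis genes outside the 48, 6 of 12 were tested and 2 were called higher, while *PKHD1*, the gene of recessive polycystic kidney disease, was at or near 0 in each library. *GANAB*, the glucosidase II catalytic subunit that polycystin-1 needs to mature and a gene of dominant polycystic kidney and liver disease, had 2865, 3341 and 3408 normalized counts in controls and 9973, 8675 and 8628 in knockdowns. The groups were far apart, and the log2 fold change was 1.504 ± 0.10 (edgeR adjusted p = 3.15e-05), larger than that of any of the 48 ciliary genes. *PKDREJ*, a polycystin-1 relative, had 32.7, 40.2 and 54.5 and 77.1, 81.4 and 77.3, a log2 fold change of 0.89 ± 0.23 (edgeR adjusted p = 0.0342). *PKDREJ* lost its call without control replicate 1 and without each of the knockdown replicates, and *GANAB* lost it in none of the 15 alternatives.

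Of the fibroblast list 4 of 6 genes were tested and 0 called, with a summed level of 633 to 864 in controls and 697 to 1026 in knockdowns.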
